A study of Homo sapiens with 6 samples.

Results

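The 10 cancer-related long noncoding RNA (lncRNA) genes described here were followed through the RNA-seq of PANC-1, an established human pancreatic ductal adenocarcinoma cell line, with and without an enhancer of DKK1. They are LNCAROD, MALAT1, NEAT1, PVT1, GAS5, HOTAIR, HOTTIP, UCA1, TUG1 and NORAD, chosen by name with earlier results of these data known. All 10 were found among the 62703 genes of the deposited table. Poly(A) RNA libraries came from 3 replicates of DKK1-SE-/- cells and from 3 replicates of DKK1-SE+/+ cells, the unedited line. In the DKK1-SE-/- cells Cas9 had removed e1, the core element of the DKK1 super-enhancer, a deletion that the study reports as homozygous by PCR. The DKK1-SE-/- cells were 1 subclone, so every p-value below measures the spread between samples of 1 clone and of its parent line, and what belongs to the deletion and what belongs to the clone cannot be told apart. Expected counts summed to 21822314, 16475810 and 18803154 in the DKK1-SE+/+ libraries (replicates 1, 2 and 3, the order of values throughout) and to 17359835, 20098086 and 17804764 across the DKK1-SE-/- libraries.

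Long noncoding RNAs act as RNA rather than through a protein. Some build nuclear bodies (NEAT1 in paraspeckles, MALAT1 in splicing speckles), some bind and occupy proteins (NORAD with the Pumilio proteins), some host small nucleolar RNAs (snoRNAs) in their introns (GAS5), and some lie in or beside gene clusters whose chromatin they have been tied to (HOTAIR and HOTTIP in the HOX clusters, PVT1 beside MYC). Many were first described because tumours contain more or less of them than normal tissue.

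The labels were checked first on DKK1, the Wnt antagonist that the enhancer serves. Its TPM (transcript abundance scaled to length and library size) was 229, 246 and 199 across the DKK1-SE+/+ libraries and 66.8, 79.8 and 82.7 across the DKK1-SE-/- libraries, with no overlap, and its log2 fold change was -1.45 ± 0.11 (SE, adjusted p = 6.16e-06, edgeR). KRT8 and KRT18 led the 8 duct and epithelial markers, with means of 957 and 856 TPM in DKK1-SE+/+ cells. SOX9 (64.3) and KRT19 (53.9) followed there. KRT7 (13.3), MUC1 (9.40) and EPCAM (4.17) were far lower, and CFTR was at 0 TPM in every DKK1-SE+/+ library. The summed TPM of the 8 was 1909, 1963 and 2005 in DKK1-SE+/+ cells and 3217, 3158 and 2726 in DKK1-SE-/- cells, most of it from KRT8 and KRT18. Of the 7 that could be tested 4 were higher and 2 lower at an adjusted p under 0.05, a threshold that 39.3% of all tested genes passed. KRT19 rose by a log2 fold change of 1.83 ± 0.16 (SE, adjusted p = 1.4e-05, edgeR), while EPCAM (-0.67, adjusted p = 0.0395, edgeR) and SOX9 (-0.39, adjusted p = 0.0219, edgeR) fell. With the replicate block neither fall passed, and over 15 alternatives EPCAM passed in 5 and SOX9 in 11. The 8 acinar and islet markers summed to at most 0.33 TPM in any library, with INS, SST, CELA3A, AMY2A and PNLIP at 0 in all. Of 8 stromal, immune and endothelial markers only CD68 passed the filter on low counts, and the other 7 had a mean under 1 TPM. The list summed to 44.4, 41.6 and 47.3 TPM in DKK1-SE+/+ cells and to 68.5, 65.2 and 67.2 in DKK1-SE-/- cells, nearly all of it CD68, which was higher by a log2 fold change of 0.76 ± 0.11 (SE, adjusted p = 0.000407, edgeR). The part of this difference in the results below was not tested. In bulk RNA, fewer cells that make an RNA and less of it per cell cannot be told apart.

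Of the 10 lncRNAs, 7 had enough counts to be tested and 3 (LNCAROD, HOTTIP and UCA1) did not. A gene is called here when its Benjamini-Hochberg adjusted p in edgeR's quasi-likelihood test, taken over all 15179 tested genes, is under 0.05. NORAD was called higher and PVT1 lower in DKK1-SE-/- cells, which is 1 of 7 in each direction, and MALAT1, NEAT1, GAS5, HOTAIR and TUG1 were not called. Among all tested genes 19.8% were called higher and 19.5% lower, 39.3% in all. Among the 1922 tested genes that GENCODE classes as lncRNA, 12.2% were called higher and 7.28% lower, 19.5% in all, so 2 calls among 7 members lie between these backgrounds. The median log2 fold change was -0.01 over the 7 members, 0.03 over all tested genes and 0.12 over the tested lncRNA genes. The fold limit of 1.2 in the study's methods was used here on the log2 scale, together with an unadjusted p under 0.05, and 0 members passed it in edgeR, against 8.66% of all tested genes. Read as a linear fold, an alternative added after seeing the data, 1.2 was passed by 2 members (NORAD and PVT1) and by 47.6% of all tested genes. At an unadjusted p under 0.05 without a fold limit 2 members passed, and DESeq2 called 2 by its adjusted p. TUG1 is classed as protein coding in GENCODE version 44, and the other 9 as lncRNA.

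**Figure D1:**
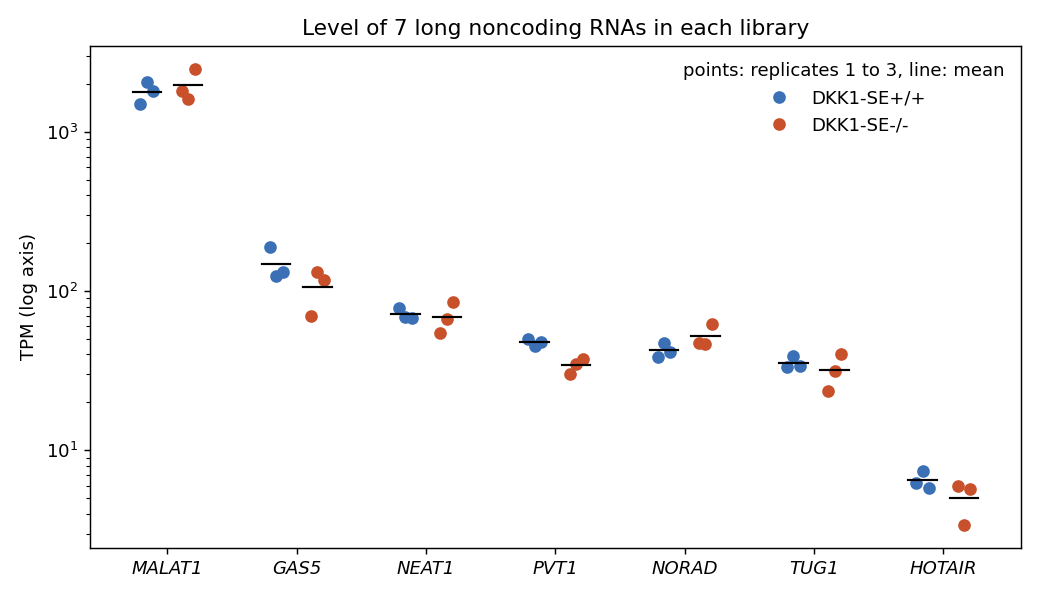
TPM on a log axis of the 7 members with enough counts to be tested, 1 point per library and a line at the mean of 3 replicates. The levels span from about 2499 TPM for MALAT1 to 3.4 TPM for HOTAIR, and the DKK1-SE-/- points of PVT1 all lie under its DKK1-SE+/+ points.

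The members covered a very wide range of levels. By mean TPM in DKK1-SE+/+ cells MALAT1 came first (1784 ± 273, SD, n = 3), followed by GAS5 (148 ± 35.4), NEAT1 (71.7 ± 5.54), PVT1 (47.6 ± 2.43), NORAD (42.5 ± 4.19), TUG1 (35.3 ± 3.07) and HOTAIR (6.48 ± 0.811). PVT1 and NORAD were within each other's range there, since the lowest PVT1 library (45.0) lay under the highest NORAD library (47.0). In DKK1-SE-/- cells NORAD stood above PVT1, with 52.0 ± 9.14 against 34.2 ± 3.67 and no shared values, while PVT1 and TUG1 (31.9 ± 8.52) overlapped. MALAT1 was rank 5 by TPM among 18843 lncRNA genes in both genotypes and made up 79.2% to 88.7% of the summed TPM of the 10 members, which was 0.190% to 0.285% of each library.

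LNCAROD, an lncRNA gene that lies between e1 and ZWINT, is the annotated neighbour of the deleted element. It spans 305 kb on the minus strand of chromosome 10 (chr10:52450874-52755509, hg38), and its end nearest to e1 is 6.64 kb from the element, while the start of DKK1 lies 128 kb away on the other side. Its counts were 0, 0 and 4 across the DKK1-SE+/+ libraries and 0, 0 and 0 across the DKK1-SE-/- libraries. The gene was thus all but silent in both genotypes, with reads in a single library of the unedited line. A count of 0 allows up to 3 counts, or 0.137 and 0.182 CPM (counts scaled to the library total) in the DKK1-SE+/+ libraries without reads and 0.149 to 0.173 in the DKK1-SE-/- libraries, for counting error alone. The two-sided exact permutation test of TPM gave p = 1, where 3 against 3 samples can give no p under 0.1, and no fold is given because a difference was not detectable at this depth.

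The letters of e1 and of a LNCAROD start site are shown because both hold TGANTCA, the core letters that AP-1 factors bind, and because the deletion removes the first set and leaves the second. This motif reads the same on both strands. In e1 the letters occur 4 times, a number reached by 0.459% of 78931 windows of that length along chromosome 10 of hg38. Each window below is given on the plus strand, with the motif in capitals.
e1 window 1, chr10:52443496-52443532: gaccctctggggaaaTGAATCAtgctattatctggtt
e1 window 2, chr10:52443732-52443768: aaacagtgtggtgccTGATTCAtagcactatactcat
e1 window 3, chr10:52443962-52443998: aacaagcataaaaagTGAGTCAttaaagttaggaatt
e1 window 4, chr10:52444035-52444071: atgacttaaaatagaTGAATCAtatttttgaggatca
RefSeq's promoter windows (GRCh38.p14) run from 250 bases before to 50 bases after a start. They include 2 starts of LNCAROD, 26.3 kb and about 11 kb from e1, and the nearer one holds the motif once, beginning 100 bases before the start. It is printed on the minus strand, 5′ to 3′, with the motif in capitals.
LNCAROD promoter, chr10:52455223-52455522: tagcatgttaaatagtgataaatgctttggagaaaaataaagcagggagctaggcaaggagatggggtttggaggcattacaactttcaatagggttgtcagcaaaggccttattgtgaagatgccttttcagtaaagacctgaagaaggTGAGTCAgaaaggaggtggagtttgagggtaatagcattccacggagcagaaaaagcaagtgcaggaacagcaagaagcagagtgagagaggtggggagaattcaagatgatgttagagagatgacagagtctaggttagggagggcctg
Of all 35116 promoter windows 7.71% hold these letters. Windows were found for 6 of the 10 members (GAS5, HOTTIP, LNCAROD, MALAT1, NORAD and TUG1), and of their 8 windows only this one has the motif. A match describes letters and not the binding of a factor, and with 4 LNCAROD counts in all 6 libraries the expression data give no reading of either start. The motifs of e1 windows 1, 3 and 4 lie in sites that the study deleted, and it reported less reporter activity without them. Its DNA pull-down also found JUND and FOSL2 on this part of e1, with less binding after the deletion. Window 2 was not among its deleted sites.

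MALAT1, the abundant nuclear RNA of splicing speckles, lies on chromosome 11 (chr11:65497640-65508073, plus strand). Its TPM was 1503, 2048 and 1801 across the DKK1-SE+/+ libraries and 1820, 1616 and 2499 across the DKK1-SE-/- libraries. DKK1-SE-/- replicate 3 was the highest of all 6 and the other two lay inside the DKK1-SE+/+ range, so the groups overlapped. The log2 fold change was 0.26 with a 95% interval of -0.09 to 0.61 (adjusted p = 0.216, edgeR), which covers folds from 0.941 to 1.52. With 1 library left out the estimate ran from 0.07 (without DKK1-SE-/- replicate 3) to 0.38. With a GC-content offset per library it was 0.45 ± 0.14 (SE), and MALAT1 was then called (adjusted p = 0.0217, edgeR).

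What a MALAT1 count stands for needs care, because TALAM1, its antisense partner, covers 8.12 kb of the same stretch on the opposite strand. TALAM1 received 22203, 19634 and 21095 expected counts across the DKK1-SE+/+ libraries and 21868, 22329 and 33272 across the DKK1-SE-/- libraries, beside 35007, 36049 and 36700 and then 34397, 36501 and 49351 for MALAT1. Both genes peak in the same library, DKK1-SE-/- replicate 3. The kit marked the strand, but whether the counting used it is not given in the sources used here, so the share of reads that belongs to each strand was not tested. With both genes' counts added, an alternative chosen after seeing the data, the log2 fold change was 0.32 ± 0.16 (SE, adjusted p = 0.133, edgeR).

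The ratio of count to TPM adds a further reading of the same genes, since a TPM divides each count by an effective length. Scaled on 336 genes with 1 annotated transcript, the length implied for MALAT1 was 1309 to 1415 bases over the 6 libraries, although its longest annotated transcript has 10434. NORAD, with 1 transcript of 5401 bases, came out at 5159 to 5172 bases, while NEAT1 came out at 3720 to 4255 of 22743 and GAS5 at 539 to 603 of 3145. The effective length behind the TPM of MALAT1 is therefore far under that of its longest transcript. Per kilobase of its longest transcript MALAT1 had 184 and 210 CPM in DKK1-SE+/+ and DKK1-SE-/- cells, against 31.7 and 40.8 for NORAD, so that the distance between the pair is far smaller on this scale than in TPM.

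NEAT1, the RNA scaffold of paraspeckles, is transcribed from a neighbouring locus (chr11:65422774-65445540, plus strand). It had 78.1, 68.9 and 68.1 TPM across the DKK1-SE+/+ libraries and 54.7, 67.1 and 85.4 TPM across the DKK1-SE-/- libraries. The DKK1-SE-/- values lay on both sides of the DKK1-SE+/+ values, and their SD was 15.4 against 5.54. The log2 fold change on counts was 0.16 with a 95% interval of -0.15 to 0.47 (adjusted p = 0.383, edgeR), and it turned to -0.07 on log2(TPM + 1) with limma. With the GC-content offset it was 0.28 (adjusted p = 0.0513, edgeR), and with 1 library left out it ran from 0.05 (without DKK1-SE-/- replicate 3) to 0.27 (without DKK1-SE+/+ replicate 1). The long NEAT1 form and MALAT1 end in a triple helix and not in a poly(A) tail, so a poly(A) library takes them up incompletely, and the part this plays was not tested.

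Genes for the proteins of these bodies were called in 8 of 18 cases in the paraspeckle list and 5 of 17 in the speckle list, against 39.3% of all tested genes, and no list was tested as a set. Of 18 paraspeckle proteins, all tested, 1 was called higher and 7 lower, with a median log2 fold change of -0.13. The core pair SFPQ and NONO were among the 7. SFPQ had 426, 498 and 472 TPM across the DKK1-SE+/+ libraries and 339, 291 and 391 across the DKK1-SE-/- libraries, with a log2 fold change of -0.38 ± 0.11 (SE, adjusted p = 0.02, edgeR). NONO had 363, 357 and 393 TPM and then 277, 277 and 298, with a log2 fold change of -0.27 ± 0.09 (SE, adjusted p = 0.0345, edgeR). In both genes every DKK1-SE-/- value lay under every DKK1-SE+/+ value, and over 15 alternatives SFPQ stayed called in 11 and NONO in 9. HNRNPH3 (-0.94) and FAM98A (-0.79) fell most in this list, and UBAP2L (0.39) rose. Over 15 alternatives HNRNPH3 ran from -1.04 to -0.79 and FAM98A from -0.97 to -0.30, and each was called in 15. Of 17 speckle proteins and factors of the MALAT1 3′ end, 1 was called higher (RNPS1, 0.35) and 4 lower, among them SON (-0.46), a core protein of speckles, and the splicing factor SRSF7 (-0.39). METTL16, a methyltransferase that binds the MALAT1 triple helix, had a log2 fold change of 0.20 and was not called. With the GC-content offset the counts were 2 higher and 5 lower for paraspeckle proteins and 2 higher and 3 lower for the speckle list, and UBAP2L, RNPS1 and SRSF7 were no longer called. With the replicate block 0 paraspeckle genes were called higher and 4 lower, and 0 genes of the speckle list higher and 1 lower. Scaled by library size alone, the speckle list had 1 higher and 7 lower.

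NORAD, a cytoplasmic RNA that keeps Pumilio proteins from their targets and guards chromosome stability, was the member called higher. Its TPM was 38.8, 47.0 and 41.6 across the DKK1-SE+/+ libraries and 46.9, 46.6 and 62.6 across the DKK1-SE-/- libraries. These values overlap at the edge, where DKK1-SE+/+ replicate 2 stands above DKK1-SE-/- replicates 1 and 2. In TMM-normalized CPM the groups were apart, with 154, 184 and 163 against 214, 212 and 251. The log2 fold change was 0.43 ± 0.11 (SE), a 1.35-fold difference with a 95% interval of 1.14 to 1.61 (adjusted p = 0.0111, edgeR), higher in 3 of 3 samples. The call was lost without DKK1-SE+/+ replicate 1 (adjusted p = 0.0888, edgeR), without DKK1-SE+/+ replicate 3 (adjusted p = 0.0541, edgeR) and on log2(TPM + 1) and log2(TPM + 0.1) (adjusted p = 0.17 and 0.172, limma). With the GC-content offset the log2 fold change grew to 0.68 ± 0.08 (SE, adjusted p = 0.000117, edgeR), and over all alternatives the adjusted p ran from 0.000117 to 0.172.

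NORAD's sequence is shown for its repeated Pumilio letters. On the transcript strand TGTANATA, the core of a Pumilio response element, occurs 15 times in its 5401 bases, or 2.78 times per kilobase. NEAT1 has 6 in 22743 bases, HOTAIR 3, TUG1 2 and the other six members 0. Among the longest transcripts of 15167 tested genes 32.4% hold the letters at least once and 6 genes hold them 15 times or more. The NORAD gene lies on the minus strand of chromosome 20 (chr20:36045618-36051018), and 4 of the sites are given 5′ to 3′ in the sense of the transcript, with the element in capitals. Between them they hold each of the bases found at the variable position.
NORAD site 1, transcript bases 819 to 826, chr20:36050183-36050210: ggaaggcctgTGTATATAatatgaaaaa
NORAD site 3, transcript bases 1299 to 1306, chr20:36049703-36049730: aatcacatttTGTAAATAcctttttgtt
NORAD site 5, transcript bases 1509 to 1516, chr20:36049493-36049520: gtgtatatagTGTACATAaaggacagac
NORAD site 11, transcript bases 3030 to 3037, chr20:36047972-36047999: aaccctactgTGTATATAgcggacaaac
Of 7 listed Pumilio proteins and NORAD partners, 2 were called higher and 2 lower, against 39.3% of all tested genes called, and with the GC-content offset 1 higher and 0 lower, so that only PRPF19 stayed called. PRPF19 (0.52) and ALYREF (0.35) rose, and CDC5L (-0.51) and RBMX (-0.29) fell, although RBMX turned to 0.09 with the GC-content offset. PUM2, a Pumilio protein, had a log2 fold change of -0.33 ± 0.15 (SE, adjusted p = 0.0905, edgeR) and was not called.

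PVT1, an lncRNA that starts 51.6 kb beyond MYC on chromosome 8 and is amplified with it in many tumours, was the member called lower. It had 49.8, 45.0 and 48.1 TPM across the DKK1-SE+/+ libraries and 30.3, 34.8 and 37.6 TPM across the DKK1-SE-/- libraries. All 3 DKK1-SE-/- values lay under all 3 DKK1-SE+/+ values. PVT1 was the only one of the 10 members without overlap in TPM, but the share of all genes without overlap is not given here. With 3 against 3 samples such a separation gives an exact permutation p of 0.1 at best, so it does not set PVT1 apart. PVT1 had a log2 fold change of -0.40 ± 0.11 (SE), a fold of 0.759 with a 95% interval of 0.642 to 0.898 (adjusted p = 0.0151, edgeR), lower in 3 of 3 samples. The call was lost without DKK1-SE+/+ replicate 1 (adjusted p = 0.0638, edgeR), without DKK1-SE+/+ replicate 3 (adjusted p = 0.0568, edgeR) and with the replicate block (adjusted p = 0.0644, edgeR), while the log2 fold change stayed between -0.48 and -0.39 over all alternatives and the adjusted p between 0.000884 and 0.0644. MYC itself, the transcription factor whose locus PVT1 shares, had 112, 126 and 139 TPM and then 129, 112 and 121 TPM, which overlap. It had a log2 fold change of 0.08 ± 0.11 (SE, adjusted p = 0.596, edgeR).

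**Figure D2:**
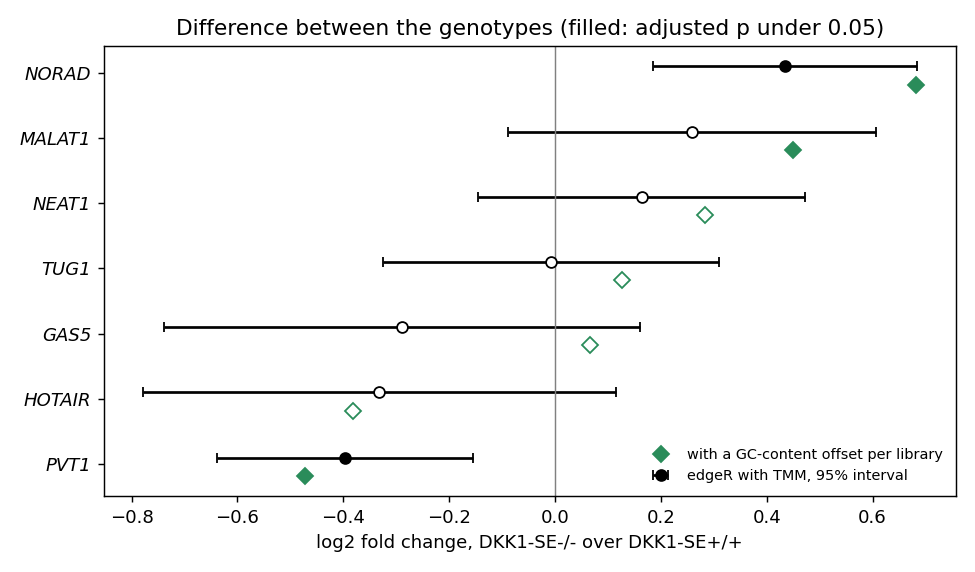
Log2 fold change of DKK1-SE-/- over DKK1-SE+/+ for the 7 tested members: circles with 95% intervals from edgeR with TMM, and diamonds from the same test with a GC-content offset per library, filled where the adjusted p is under 0.05. NORAD and PVT1 are filled in both, MALAT1 with the offset, and GAS5 and TUG1 change sign with it.

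GAS5, a growth-arrest RNA whose introns carry snoRNAs and whose spliced form is degraded by nonsense-mediated decay (NMD), had 189, 124 and 132 TPM across the DKK1-SE+/+ libraries and 69.6, 131 and 117 TPM across the DKK1-SE-/- libraries. DKK1-SE+/+ replicate 1 was the highest and DKK1-SE-/- replicate 1 the lowest, and the other 4 libraries lay together. Its log2 fold change was -0.29 with a 95% interval of -0.74 to 0.16 (adjusted p = 0.286, edgeR), and 0.07 with the GC-content offset. With 1 library left out it ran from -0.48 (without DKK1-SE-/- replicate 2) to -0.10 (without DKK1-SE-/- replicate 1). GAS5 lies on the minus strand of chromosome 1 (chr1:173858559-173868882) and overlaps ZBTB37 on the opposite strand.

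Other snoRNA hosts went both ways. Of 24 in the list 22 were tested, 3 were called higher and 4 lower, with a median log2 fold change of 0.00, where 39.3% of all tested genes and 19.5% of the tested lncRNA genes were called. SNHG14, the imprinted host on chromosome 15, had 16.9, 21.0 and 18.2 TPM in DKK1-SE+/+ cells and 26.4, 28.6 and 39.5 in DKK1-SE-/- cells, without overlap, and a log2 fold change of 1.03 ± 0.13 (SE, adjusted p = 0.000157, edgeR). SNHG10 (0.84) rose too, and SNHG4 (-0.48) and SNHG12 (-0.40) fell. Over 15 alternatives SNHG4 was called in 11, SNHG12 in 7 and SNHG10 in 6, and SNHG10, whose TPM groups overlap, came to 0.37 on log2(TPM + 1) with limma. Of 14 NMD factors 3 were called higher and 4 lower, beside 19.8% and 19.5% of all tested genes. SMG5 (0.52) and CASC3 (0.46) rose, UPF2 (-0.997) and UPF3B (-0.74) fell, and UPF1, the central helicase, had a log2 fold change of 0.27 and was not called (adjusted p = 0.0998, edgeR). With the GC-content offset 4 snoRNA hosts were called higher and 6 lower, and 2 NMD factors higher and 3 lower.

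TUG1, an lncRNA induced by taurine that starts 0.471 kb from MORC2 on chromosome 22 (chr22:30969245-30979395, plus strand), had 33.5, 38.9 and 33.7 TPM across the DKK1-SE+/+ libraries and 23.5, 31.7 and 40.5 TPM across the DKK1-SE-/- libraries. Its lowest and highest values were both in DKK1-SE-/- libraries. The log2 fold change was -0.01 with a 95% interval of -0.33 to 0.31 (adjusted p = 0.972, edgeR), which covers folds from 0.798 to 1.24. It was 0.13 with the GC-content offset and also 0.13 without DKK1-SE-/- replicate 1, but -0.19 without DKK1-SE-/- replicate 3. MORC2, a chromatin silencer read in the opposite direction, had a log2 fold change of 0.45 ± 0.11 (SE) and was called (adjusted p = 0.00727, edgeR), so the pair of genes that start side by side was not called alike, although the difference between them was not tested. Over 15 alternatives MORC2 was called in 11, with log2 fold changes from 0.26 to 0.50, and its TPM groups overlap.

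HOTAIR, the lncRNA of the HOXC cluster that was described as a partner of Polycomb repressive complex 2, had 6.27, 7.38 and 5.80 TPM across the DKK1-SE+/+ libraries and 5.99, 3.40 and 5.72 TPM across the DKK1-SE-/- libraries. DKK1-SE-/- replicate 2 stood lowest and the rest overlapped. These levels rest on 61 to 102 counts per library. HOTAIR's log2 fold change was -0.33 with a 95% interval of -0.78 to 0.12 (adjusted p = 0.219, edgeR), and it kept its sign under every alternative, from -0.48 to -0.22. HOTAIR lies on the minus strand of chromosome 12 (chr12:53962308-53974956) and overlaps HOXC11 on the other strand, which had a log2 fold change of -0.02. Of the 9 genes listed for the HOXC cluster 8 were tested, with HOXC6 (0.44) called higher and HOXC13 (-0.71) lower, beside 39.3% of all tested genes called. Over 15 alternatives HOXC13 was called in 15 and HOXC6 in 6, not with the GC-content offset. HOXC13, the nearest tested gene on one side of HOTAIR, had 11.4, 14.0 and 13.5 TPM in DKK1-SE+/+ cells and 8.57, 6.17 and 6.57 in DKK1-SE-/- cells.

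HOTTIP, at the HOXA13 end of the HOXA cluster (chr7:27198575-27207259, plus strand), had 0 counts in every DKK1-SE+/+ library and 0, 0 and 3 counts across the DKK1-SE-/- libraries. Both groups were at or under the floor of 3 counts, so no fold is given, and the exact permutation test gave p = 1. HOXA10 had 0 counts in every DKK1-SE+/+ library and 50, 52 and 45.3 across the DKK1-SE-/- libraries, and HOXA9 had 0 in every DKK1-SE+/+ library and then 31, 19 and 29. HOXA13, which overlaps HOTTIP on the opposite strand and was not tested, had 2, 0 and 0 counts and then 15, 8 and 9. HOXA10 and HOXA9, like HOXA5 and HOXA6, passed the filter through the DKK1-SE-/- libraries alone, so their calls and folds are left out. Of 14 chromatin partners of HOTAIR and HOTTIP 0 were called higher and 4 lower by edgeR, against 39.3% of all tested genes, and with the GC-content offset 2 were called higher and 3 lower. ASH2L (-1.21), a subunit of the MLL complexes, and SUZ12 (-0.77), a core subunit of Polycomb repressive complex 2, fell most. Over 15 alternatives ASH2L ran from -1.29 to -1.16 and SUZ12 from -1.05 to -0.39, and each was called in 15. EZH2 had a log2 fold change of -0.03 and WDR5, which HOTTIP binds, of 0.03, and neither was called, although WDR5 was called lower with the GC-content offset (-0.23, adjusted p = 0.0176, edgeR). With the offset and the replicate block together WDR5 was not called (-0.23, adjusted p = 0.0639, edgeR).

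UCA1, an lncRNA first described in bladder carcinoma (chr19:15828206-15836328, plus strand), had 1, 2 and 1 counts across the DKK1-SE+/+ libraries and 1, 0 and 2 across the DKK1-SE-/- libraries. All 6 libraries were under the floor of 3 counts. The exact permutation test of TPM gave p = 0.6, and a difference was not detectable at this depth.

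Other lncRNAs tied to cancer included larger fold changes than any of the 7 tested members had. Of 40 in a companion list 39 were in the table and 28 tested. LINC00460 passed the filter through the DKK1-SE-/- libraries alone, with 8, 3 and 4 counts across the DKK1-SE+/+ libraries and 37, 29 and 35 across the DKK1-SE-/- libraries, so its call and fold are left out. Of the other 27, 4 were called higher and 6 lower, with a median log2 fold change of -0.07 (5 higher and 5 lower with the GC-content offset), where 39.3% of all tested genes and 19.5% of the tested lncRNA genes were called. MEG3, the imprinted tumour-suppressor RNA, had 159, 147 and 141 TPM across the DKK1-SE+/+ libraries and 21.5, 24.6 and 22.6 across the DKK1-SE-/- libraries, with a log2 fold change of -2.43 ± 0.11 (SE). H19, another imprinted RNA, had 9.26, 10.2 and 9.89 TPM and then 31.8, 25.6 and 28.9, with a log2 fold change of 1.61 ± 0.15 (SE). The groups were far apart for both, in opposite directions. MIR100HG (-1.28) fell. These 3 passed the limit of 1.2 on the log2 scale in the main fit. Over 15 alternatives MIR100HG ran from -1.49 to -0.81, so it did not pass that limit in every fit. MEG3 ran from -2.70 to -2.41 and H19 from 1.28 to 1.70. OIP5-AS1, also in the list and named after its values were seen, shows why counts and TPM must be read together: its log2 fold change on counts was -0.75, yet its TPM was 18.1, 19.4 and 16.4 and then 16.2, 22.3 and 14.8, which overlap.

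**Figure D3:**
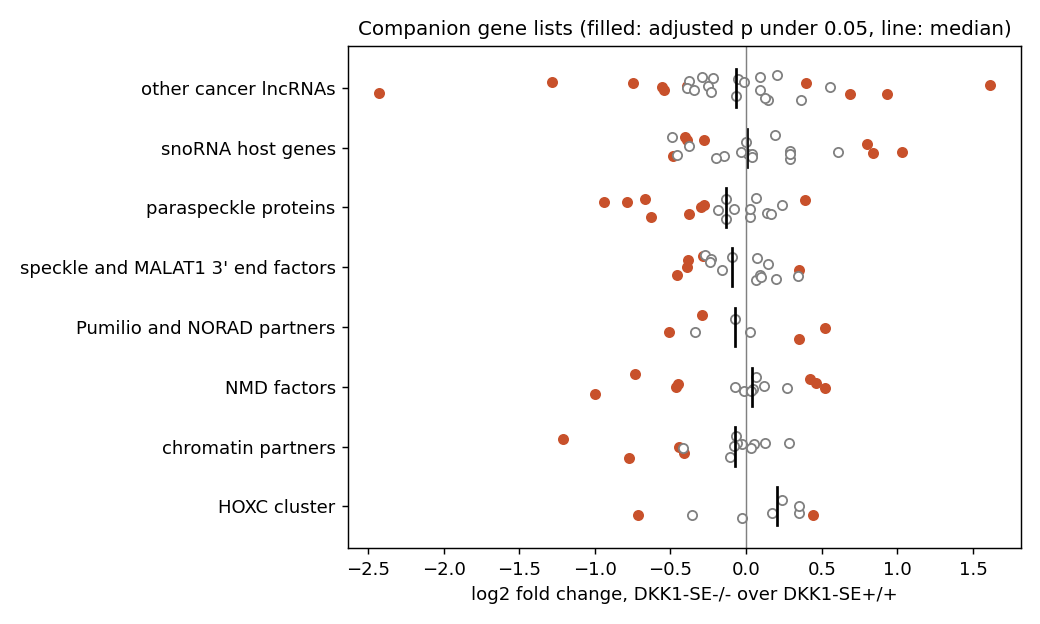
Log2 fold change of DKK1-SE-/- over DKK1-SE+/+ for each tested gene of 8 companion lists, filled where edgeR's adjusted p is under 0.05, with a line at the median of the list. Every list has genes on both sides of 0. The HOXA cluster and LINC00460 are left out because LINC00460 and 4 HOXA genes passed the filter through the DKK1-SE-/- libraries alone.

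Fold changes of the genes around each member were described as medians. Within 5 Mb of NORAD 93 other genes were tested, with a median log2 fold change of 0.48 and 49 called higher against 2 lower, where 19.8% and 19.5% of all tested genes were called in these directions. NORAD's own 0.43 lies close to that median. Its neighbour EPB41L1 was called higher on counts (0.73 ± 0.16, SE), although its TPM groups overlap and it came to 0.15 on log2(TPM + 1) with limma, and SCAND1 on the other side had 0.36 and was not called. Over the whole of chromosome 20 the median of 396 tested genes was 0.38. Within 5 Mb of PVT1 35 other genes were tested, with a median of -0.38, 3 called higher and 15 lower, next to -0.40 for PVT1. The median over all of chromosome 8 was -0.02. MYC lay inside that window and was not called, and CCDC26 on the far side had -0.75 ± 0.40 (SE) and was not called. With the GC-content offset NORAD's 0.68 stood apart from a window median of 0.40, and PVT1's -0.47 from -0.23, so the nearness to the window depends on the fit, and it was not tested.

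MALAT1 and NEAT1 share a gene-rich stretch of chromosome 11 in which the median was 0.45, with 112 of 237 genes around MALAT1 called higher and 7 lower. FRMD8 (0.45), the nearest tested gene on the NEAT1 side of the pair, was called higher, but not with the GC-content offset. Around GAS5 the median of 34 genes was -0.21, with CENPL at 0.00 and RC3H1 at -0.06, around TUG1 it was 0.15 over 73 genes, with SMTN at -0.15, and around HOTAIR 0.11 over 187 genes, with HOXC-AS3 at 0.16. With 1 library left out these medians ran from -0.32 to -0.14 around GAS5, from 0.10 to 0.21 around TUG1 and from 0.07 to 0.16 around HOTAIR, and that around PVT1 from -0.41 to -0.26. Around the silent members it was 0.47 over 31 genes for LNCAROD, although DKK1 itself fell. All 588 tested genes of chromosome 10 had a median of -0.32. ZWINT (0.32) was called higher, but only in 5 of 15 alternatives. Without 1 library the median around LNCAROD ran from 0.31 to 0.60. It was -0.20 over 59 genes for HOTTIP, where HIBADH fell (-0.72), but from -0.26 to -0.09 with 1 library left out, and 0.28 over 222 genes for UCA1, with WIZ at 0.57 and TPM4 at -0.17. WIZ was called higher, but only in 10 of 15 alternatives, and ran from 0.28 to 0.67 over them. With the GC-content offset the medians were 0.26 around both MALAT1 and NEAT1, 0.04 around GAS5, 0.07 around TUG1, 0.01 around HOTAIR, 0.66 around LNCAROD, -0.02 around HOTTIP and 0.10 around UCA1. On log2(TPM + 1) with limma they were 0.23 around MALAT1, 0.24 around NEAT1, 0.29 around NORAD, 0.25 around LNCAROD and 0.11 around UCA1. DNA copy number was not measured, and its part in these regional values was not tested.

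Fold changes also went with the GC content of genes, and why they did was not tested. Across tested genes the log2 fold change and GC content had a Spearman rho of 0.40, a description across genes, which are not independent replicates. The median of the 3034 genes with the lowest GC content was -0.64, -0.37 and -0.16 in DKK1-SE-/- replicates 1, 2 and 3 on the log2 scale relative to the DKK1-SE+/+ mean, and that of the 3034 with the highest was 0.49, 0.36 and 0.07. DKK1-SE-/- replicate 1 was thus farthest from the DKK1-SE+/+ libraries and replicate 3 nearest. GAS5 (39.2% GC in its longest transcript), NORAD (41.8%), MALAT1 (42.0%), TUG1 (43.1%) and NEAT1 (44.1%) are all toward the low end. On the same scale DKK1-SE-/- replicates 1, 2 and 3 were at 0.36, 0.35 and 0.59 for NORAD, at 0.19, 0.01 and 0.57 for MALAT1, at -0.08, 0.23 and 0.34 for NEAT1 and at -0.37, 0.02 and 0.26 for TUG1. Replicate 3 was the highest of the group in these 4, but GAS5 was at -0.79, 0.05 and -0.18. PVT1 (47.8% GC) was at -0.45, -0.34 and -0.38, nearly level across the 3. Mitochondrial genes made up 11.4%, 13.6% and 13.2% of TPM across the DKK1-SE+/+ libraries and 17.0%, 14.0% and 15.1% across the DKK1-SE-/- libraries, without overlap, and the part of this difference in any result was not tested. With the offset the rho of fold change and GC content was -0.01. The offset moved the log2 fold changes of NORAD, MALAT1, NEAT1, TUG1 and GAS5 upward and PVT1 and HOTAIR slightly downward.

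**Figure D4:**
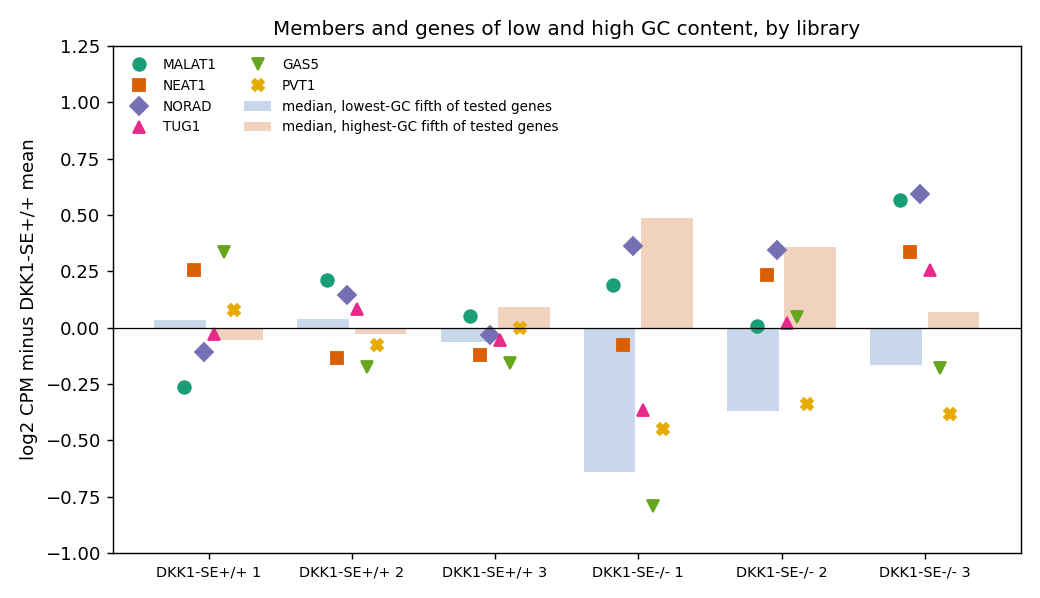
Log2 CPM minus the DKK1-SE+/+ mean in each library: bars give the medians of the 3034 tested genes with the lowest and with the highest GC content, and symbols give 6 members. The bars are tallest in DKK1-SE-/- replicate 1 (-0.64 and 0.49), and MALAT1, NEAT1, NORAD and TUG1 stand highest in DKK1-SE-/- replicate 3.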

How the data were processed

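RNA-seq of PANC-1 cells was available from 3 DKK1-SE-/- and 3 DKK1-SE+/+ samples, grouped by their labels. The authors had stranded mRNA libraries made and sequenced by a company, and the submitters' processing notes name the hg38 build. The aligner, the counting program and its strand setting are not given in the sources used here. The deposited table holds expected counts per gene and sample, of which 32.3% of the values above 0 are not whole, and TPM computed by the authors within each library. It also holds the authors' own fold changes, log2 fold changes, p-values and adjusted p-values for the same 2 groups, which were not used.

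Gene positions, biotypes, transcripts and GC content came from GENCODE version 44, matched by Ensembl identifier for 62625 of 62703 genes (99.9%). Expected counts were rounded and fitted in R 4.3.3 with edgeR 4.0.16, using filterByExpr by group with a minimum count of 10, TMM, and the quasi-likelihood F test of 3 against 3 samples, with Benjamini-Hochberg adjustment over 15179 genes. The SE is the absolute log2 fold change divided by the square root of F. Members under the filter were compared in TPM by the exact permutation test, two-sided (scipy 1.17.1 in Python 3.11.15). Alternatives were a replicate block, DESeq2 1.42.0, scaling by RLE or by library size, no filter beyond a total count of 1, limma-trend (limma 3.58.1) on log2(TPM + 1) and log2(TPM + 0.1), a GC-content offset in 40 bins with and without the block, and leaving out each sample. MALAT1 and TALAM1 counts added together, and the fold limit read as a linear fold, were chosen after seeing the data. The fits were tested on simulated data in which 200 genes were changed and no GC trend was put in. There edgeR recovered 197 of them with 16 false calls, and DESeq2 195 with 33 false calls.

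The text names the 10 members, DKK1, MYC, the nearest tested gene on each side of a member, the called genes with the 2 largest and 2 smallest log2 fold changes in a companion list, and SFPQ, NONO, PUM2, UPF1, EZH2, WDR5 and METTL16. Where a list has more such genes than are given, the remaining ones are left to the counts, and some genes within this rule are left unreported. TALAM1, HOXC11, HOXA13 and ZBTB37 were named because they overlap a member. The members and lists were chosen with earlier results of these data known. Intervals and floors cover counting error and the spread between these samples only.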

Additional observations from a re-analysis of the deposited data

How the results depend on the processing

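Over 9 alternatives, 6 fits that each left out a sample and the added counts of MALAT1 and TALAM1, 805 of the log2 fold changes of named genes kept direction and side of the threshold, 159 were no longer called, 10 became called and 47 changed sign. The 805 include HOXA10, HOXA9, HOXA5 and LINC00460, called in 15 of 15 alternatives each. These genes passed the filter through the DKK1-SE-/- libraries alone, so their part of the 805 is no measure of stability. The count of members called higher was 0 on both TPM scales with limma, 2 with the GC-content offset (with and without the replicate block) and 1 otherwise, and 0 to 1 when a sample was left out. The count called lower was 0 with the replicate block, 1 in the other alternatives and 0 to 1 when a sample was left out, with both calls lost without DKK1-SE+/+ replicate 1 or 3. The count of members past the log2 limit of 1.2 was 0 in every fit, and 2 with 1.2 read as a linear fold, an alternative added after seeing the data. The replicate numbers were not treated as pairs. Same-numbered samples had deviations with a mean correlation of -0.10, against 0.05 for the others. The deviations were taken from each group's own mean, so the second value largely follows from the first. This comparison cannot decide whether same-numbered samples were handled together. The replicate block took the calls among all genes from 5972 to 4981, and under it PVT1 had an adjusted p of 0.0644 and NORAD of 0.0355 (edgeR). Signs turned with the GC-content offset, without and with the block, for GAS5 (0.066 and 0.066), TUG1 (0.13 and 0.12), UPF1 (-0.021 and -0.022), EZH2 (0.20 and 0.20), WDR5 (-0.23 and -0.23), RC3H1 (0.27 and 0.26), SRSF1 (0.087 and 0.083), RBMX (0.087 and 0.083), EED (0.037 and 0.043) and SCAND1 (-0.013), and on log2(TPM + 1) and log2(TPM + 0.1) for NEAT1 (-0.074 and -0.075), MYC (-0.056 and -0.057), WDR5 (-0.15 and -0.15), the gene without a symbol between NEAT1 and MALAT1 (-0.011 and -0.016) and CENPL (-0.18 and -0.20). They turned for CENPL with RLE (-0.0095), WDR5 with library size alone (-0.039), CENPL with library size alone (-0.067), CENPL with DESeq2 (-0.018), CENPL with no filter beyond a total count of 1 (-0.016) and CENPL with the replicate block (-0.0023), and in some fits with a sample left out for WDR5 (-0.041 to 0.070), CENPL (-0.11 to 0.046), TUG1 (-0.19 to 0.13), RC3H1 (-0.36 to 0.087), HOXC-AS3 (-0.011 to 0.33) and MYC (-0.025 to 0.15). Medians within 5 Mb turned in sign on the TPM scales or with the GC-content offset for HOTAIR (-0.0090 and -0.012), TUG1 (-0.0052 and -0.0052) and GAS5 (0.040 and 0.039). The cause of these changes was not tested. SRSF1, RBMX and EED, which turned with the offset, were called lower in the main fit. Depth limits LNCAROD, HOTTIP and UCA1, whose counts lie near the floor. One clone, 3 libraries a group and unstated strand use in counting limit the rest.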
